A study of Mus musculus with 6 samples.

Results

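The genes described here are 35 genes that make cholesterol and fatty acids or control that synthesis, followed in mouse embryonic fibroblasts during the first week of reprogramming towards pluripotent cells. They were listed by their roles, with earlier results of these data known, and the rule for listing them used no measured value: 17 genes for enzymes of sterol synthesis, 6 for the proteins that sense or carry sterols and switch the pathway, and 12 for enzymes that make, lengthen, desaturate or activate fatty acids. Of the 35, 34 had a probe set on the array that named no other gene, among 18193 such genes in all. Acat2 had none, so its expression was not analysed here, and it enters only the promoter counts below. All 34 passed the filter on low values: their lowest intensity on any array was 219, for Dhcr7, against a filter intensity of 33.5. The fibroblasts were of the strain B6CBAF1/J and were reprogrammed either with O(5R)SK, which pairs a form of OCT4 labelled 5R with SOX2 and KLF4, or with O(WT)SK, which pairs wild-type OCT4 with the same SOX2 and KLF4. Cells of each combination were collected on day 3, day 5 and day 7, with 1 array for each combination and day and so 6 arrays in all. The medium was that of embryonic stem cells, and it held serum and leukemia inhibitory factor for every group. The labels do not say what 5R changes in OCT4, how the factors were delivered, or whether the days came from separate cultures, and no array of fibroblasts without factors is among the 6. With 1 array per point no value has a replicate error of its own, and the p-values below measure the spread of the arrays around a model of combination plus day. Those of the slopes measure it around a straight line over the days in each combination.

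Cells build cholesterol from acetyl-CoA through mevalonate, isoprenoid diphosphates, squalene and lanosterol, and they build fatty acids from the same acetyl-CoA through malonyl-CoA. Both routes are switched by the sterol regulatory element binding proteins (SREBPs, encoded by Srebf1 and Srebf2), which SCAP escorts from the endoplasmic reticulum for cleavage when membrane sterol is low and which the INSIG proteins hold back when it is high. Insig1 is itself a target of these factors, and membrane growth in dividing cells draws on both routes.

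Values are the deposited array intensities, which carry the same scaling on every array (a trimmed mean of 500), and the median log2 value of the tested genes lay between 9.04 and 9.11 on the 6 arrays. Differences are given on the scale of log2(intensity + 16), so a difference of a dim gene is understated, and no gene's intensity is set against that of another gene. The 11 fibroblast markers on the array, collagens and Thy1 among them, were above the filter intensity on every array, although Thy1 fell by log2 0.71 between day 3 and day 7 (adjusted p = 0.0239). Markers of other cell types and of the cell cycle moved with time. The summed intensity of 12 macrophage markers was 9692 on day 3, 5110 on day 5 and 3473 on day 7 with O(5R)SK, and 10140, 5815 and 4194 on the same days with O(WT)SK. All 11 tested had a fitted difference below 0 between day 3 and day 7, and 8 of them had an adjusted p under 0.05 in limma's test. The summed intensity of 9 proliferation markers was 34602.5, 27227 and 24154 with O(5R)SK and 33700.2, 28561.5 and 24560 with O(WT)SK on days 3, 5 and 7. All 9 had a fitted day 7 difference below 0, and 5 of them passed the same threshold (Cdk1, Mcm2, Mcm5, Birc5 and Aurka), against 10.2% of all tested genes in either direction. The 11 adipocyte markers summed to 4235, 2395 and 1352 with O(5R)SK and to 4826, 3122 and 2095 with O(WT)SK. Most of each sum was Lpl, which read 3708, 2021 and 1008 with O(5R)SK and 4193, 2606 and 1490 with O(WT)SK. The median day 7 difference of the 7 tested was -0.43 with O(5R)SK and 0.06 with O(WT)SK. Of these 7, Plin4 and Lipe rose and Lpl and Cd36 fell at an adjusted p under 0.05 in limma's test. Adipoq, Cidec and Lep stayed below the filter intensity throughout, and Retn read above it only with O(WT)SK, at 36.4 on day 3 and 71.8 on day 7. Lpl, Fabp4 and Pparg were above it on every array, and Plin4, Cebpa, Cd36 and Lipe on some arrays. The part of these shifts in the results below was not tested, and in such bulk RNA fewer cells of a type and less RNA per cell cannot be told apart.

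The promoters of 28 of the 35 genes were matched by symbol in RefSeq's mouse table (build GRCm38.p6), each from 250 bases before to 50 bases after the transcript start. They were searched on both strands for a sterol regulatory element (TCACNCCAC), the CCAAT box bound by NF-Y (CCAAT), the GC box bound by Sp1 (GGGCGG) and an E-box (CACGTG). The CCAAT box was found in 13 of 14 sterol synthesis genes, 4 of 5 control genes and 6 of 9 fatty acid genes, where 42.8% of 10191 tested genes held 1 or more. The GC box was found in 13 of 14, 5 of 5 and 5 of 9 genes of the same groups, against 68.0% of tested genes. The E-box was found in 3 sterol synthesis genes (Hsd17b7, Sc5d and Dhcr7), 2 control genes (Insig1 and Scap) and Elovl5, against 11.4% of tested genes. The sterol element as spelled here was found in Hmgcs1 alone, against 1.42% of tested genes. Matches of these letters are a description of the window and not evidence of binding. Promoters of 4 members are printed because they show the range: Hmgcs1, the entry enzyme with the sterol element, Insig1, the sterol-sensing control gene, Mvd, a mid-pathway enzyme, and Fasn, the fatty acid synthase. Capitals mark the motifs, read 5′ to 3′ on the strand of the gene, and in Fasn a CCAAT box and its reverse complement overlap.
Hmgcs1 (chr13:119690101-119690400, plus strand): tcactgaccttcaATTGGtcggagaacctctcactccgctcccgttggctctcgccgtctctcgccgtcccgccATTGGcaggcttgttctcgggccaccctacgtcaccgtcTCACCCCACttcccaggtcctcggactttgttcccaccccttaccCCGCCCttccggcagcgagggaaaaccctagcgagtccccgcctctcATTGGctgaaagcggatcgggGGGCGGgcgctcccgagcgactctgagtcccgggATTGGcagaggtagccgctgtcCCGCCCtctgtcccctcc
Insig1 (chr5:28071162-28071461, plus strand): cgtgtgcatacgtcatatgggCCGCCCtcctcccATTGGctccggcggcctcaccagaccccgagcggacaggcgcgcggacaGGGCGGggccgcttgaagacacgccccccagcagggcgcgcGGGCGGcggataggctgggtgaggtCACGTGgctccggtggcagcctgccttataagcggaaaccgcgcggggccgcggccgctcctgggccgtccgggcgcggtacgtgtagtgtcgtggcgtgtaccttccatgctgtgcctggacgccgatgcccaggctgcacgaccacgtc
Mvd (chr8:122443373-122443672, minus strand): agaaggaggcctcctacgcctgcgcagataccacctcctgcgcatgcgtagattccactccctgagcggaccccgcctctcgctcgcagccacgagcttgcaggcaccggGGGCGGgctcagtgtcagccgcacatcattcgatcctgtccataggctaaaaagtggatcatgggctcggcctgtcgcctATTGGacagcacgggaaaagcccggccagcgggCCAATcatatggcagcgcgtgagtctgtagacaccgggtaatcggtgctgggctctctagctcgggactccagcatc
Fasn (chr11:120824498-120824797, minus strand): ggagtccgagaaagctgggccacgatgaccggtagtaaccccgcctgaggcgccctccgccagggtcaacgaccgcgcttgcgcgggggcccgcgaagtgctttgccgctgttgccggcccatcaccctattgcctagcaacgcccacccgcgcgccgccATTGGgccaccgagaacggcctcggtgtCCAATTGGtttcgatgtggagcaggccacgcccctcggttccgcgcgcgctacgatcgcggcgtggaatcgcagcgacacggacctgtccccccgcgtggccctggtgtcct

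The Hmgcs1 window held its sterol element 137 bases before the start, between 2 of its 4 CCAAT boxes, and 3 GC boxes. The Insig1 window held 1 CCAAT box, 3 GC boxes and 1 E-box. Mvd held 2 CCAAT boxes and 1 GC box, and Fasn held 3 CCAAT boxes and no GC box.

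**Figure D1:**
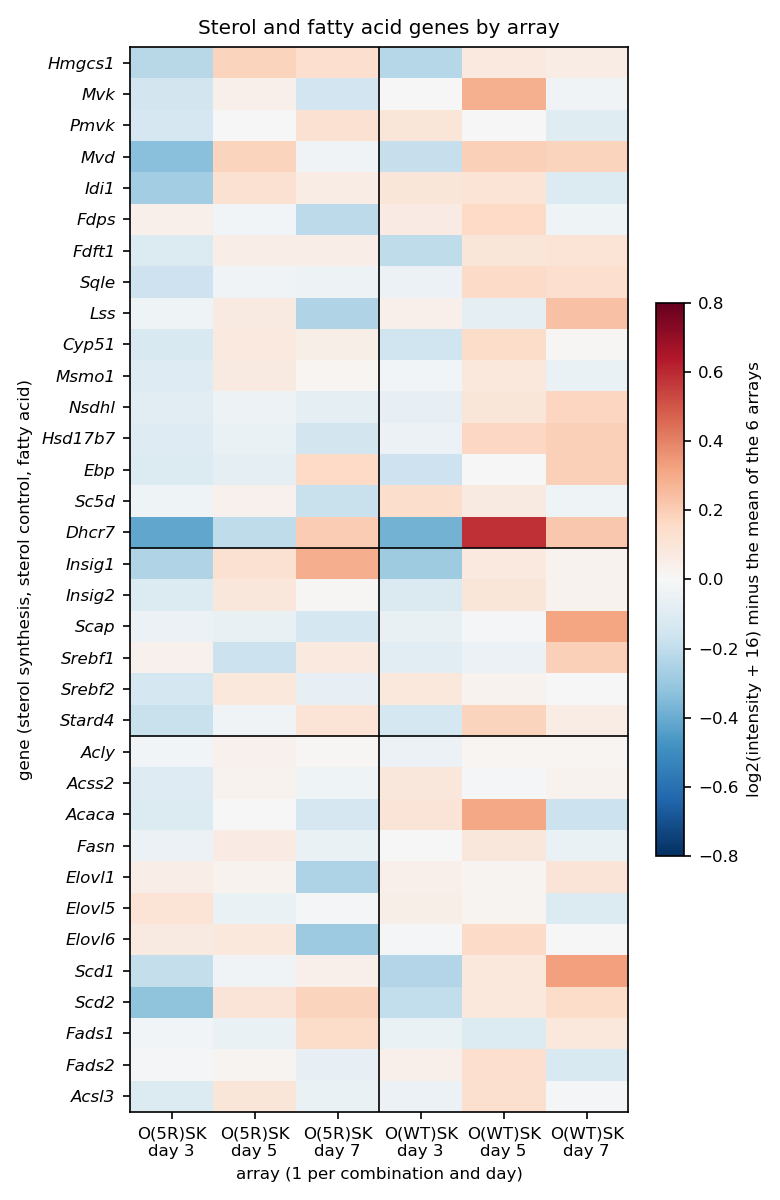
Each cell shows log2(intensity + 16) of a member on 1 array minus its mean over the 6 arrays, with members ordered by role and the O(5R)SK arrays left of the O(WT)SK arrays. In both combinations 12 of 16 sterol synthesis genes read higher on day 5 than on day 3, and Dhcr7 had its highest value on day 5 with O(WT)SK.

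The first question was how the members changed over the days of reprogramming. Between day 3 and day 7 no member passed limma's test, at an adjusted p under 0.05, while 10.2% of all 12622 tested genes passed it. The sterol synthesis genes nevertheless had higher values on day 7 more often than not: the fitted difference was above 0 for 12 of 16, with a median log2 difference of 0.11, where it was above 0 for 53.4% of all tested genes, with a median of 0.03. The 6 control genes had a median of 0.15, with 5 above 0, and the 12 fatty acid genes a median of -0.01, with 6 above 0. At an unadjusted p under 0.05, 7 of 34 members had higher values on day 7 (Hmgcs1, Mvd, Ebp, Dhcr7, Insig1, Scd1 and Scd2) and none lower, against 17.6% of all tested genes higher and 13.0% lower, so the members' share of 20.6% was near that of the array. Under limma's trended, robust prior, 6 of these 7 (all but Mvd) passed the adjusted threshold, where 12.4% of all genes passed it in that direction. The sterol synthesis median was 0.19 without the O(5R)SK day 3 array, 0.18 without the O(5R)SK day 7 array, 0.19 with the mean of each gene's probe sets and 0.07 with arrays set to a common median.

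Hmgcs1, which makes HMG-CoA at the head of the mevalonate route, read 7665, 10109 and 9798 on days 3, 5 and 7 with O(5R)SK, and 7646, 9463 and 9320 with O(WT)SK. Day 3 was the low point in both combinations, and the day 7 values did not overlap those of day 3. Of all tested genes, 37.9% read higher on day 7 than on day 3 in both combinations. The share without overlap was not counted, so lack of overlap is only described, for this gene and those below. Its fitted day 7 difference was 1.25-fold (log2 0.32 ± 0.10, SE; adjusted p = 0.109). Mvd, the decarboxylase that yields isopentenyl diphosphate, read 411, 593 and 512 with O(5R)SK, and 459, 598 and 594 with O(WT)SK. Its day 5 values were the highest in each combination, and its day 7 difference was 1.26-fold (log2 0.33 ± 0.10, SE; adjusted p = 0.118). Ebp, a sterol isomerase late in the route, read 2598, 2664 and 3138 with O(5R)SK, and 2503, 2822 and 3206 with O(WT)SK. Each later day read higher than the one before in both combinations, and the day 7 difference was 1.24-fold (adjusted p = 0.119). Dhcr7, the reductase that finishes cholesterol, read 219, 256 and 345 with O(5R)SK, and 225, 453 and 348 with O(WT)SK. Both day 7 values lay above both day 3 values, at 1.52-fold (95% interval of the fold 1.01 to 2.30, adjusted p = 0.158), and the highest value of all 6 was that of O(WT)SK on day 5. Fdft1, squalene synthase, read 4471, 5007 and 5005 with O(5R)SK, and 4189, 5159 and 5207 with O(WT)SK, 1.18-fold on day 7 (adjusted p = 0.197).

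Other enzymes of the route read lower on day 7 than on day 3 or differed less between these days. Fdps, which makes farnesyl diphosphate, read 6757, 6459 and 5662 with O(5R)SK, and 6861, 7320 and 6407 with O(WT)SK, and Mvk, mevalonate kinase, read 393.5, 451.1 and 391.8 against 437.8, 537.9 and 429.6. Together with Sc5d, the sterol desaturase, these were the 3 sterol synthesis genes below their day 3 value on day 7 in both combinations, against 31.8% of all tested genes, while 8 of 16 lay above it in both, against 37.9%. Sqle, squalene epoxidase, read 2770, 3052 and 3021 with O(5R)SK, and 3017, 3458 and 3413 with O(WT)SK. Cyp51, the lanosterol demethylase, read 2444, 2816 and 2749 with O(5R)SK, and 2383, 2945 and 2681 with O(WT)SK. Msmo1, a methylsterol oxidase, read 5666, 6408 and 6162, against 6005, 6469 and 5857. These 3 genes shared a peak on day 5 in both combinations. Day 3 was the lowest day of Sqle and Cyp51 in both. Msmo1 was lowest on day 3 in O(5R)SK and on day 7 in O(WT)SK. Idi1, isopentenyl diphosphate isomerase, read 3303, 4373 and 4192 with O(5R)SK, and 4291, 4326 and 3726 with O(WT)SK, so its low point was day 3 in O(5R)SK and day 7 in O(WT)SK. Sc5d read 2353, 2463 and 2124 with O(5R)SK, and 2660, 2532 and 2356 with O(WT)SK, lowest on day 7 in each. Nsdhl, a sterol dehydrogenase that helps remove methyl groups, read 1763, 1825 and 1787 with O(5R)SK, and 1789, 2005 and 2115 with O(WT)SK.

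**Figure D2:**
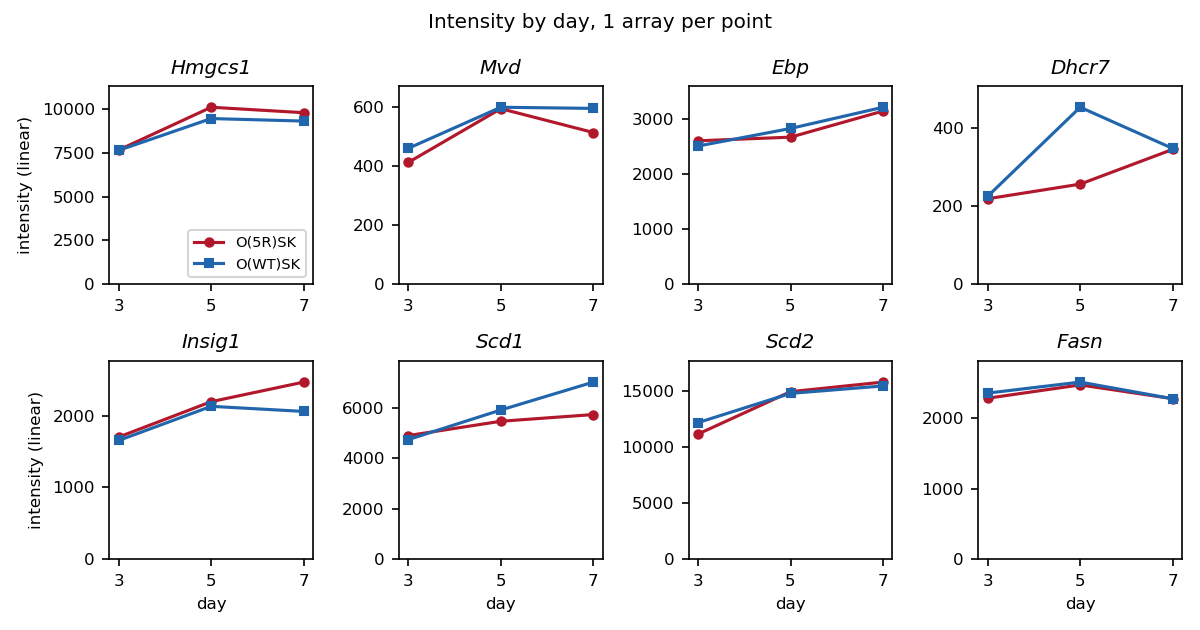
Deposited intensity (linear axis from 0) of Hmgcs1, Mvd, Ebp, Dhcr7, Insig1, Scd1, Scd2 and Fasn on days 3, 5 and 7, with 1 array per point and a line per combination. Scd2 and Insig1 were lowest on day 3 in both combinations, and Fasn was highest on day 5 in both.

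Among the control genes, Insig1 read 1700, 2193 and 2466 with O(5R)SK, and 1652, 2128 and 2057 with O(WT)SK. All 4 later arrays lay above both day 3 arrays, and its day 7 difference was 1.34-fold (95% interval 1.10 to 1.64, adjusted p = 0.084), with an adjusted p between 0.00782 and 0.310 over the alternatives. Insig2, its relative, read 1248, 1436 and 1360 with O(5R)SK, and 1246, 1444 and 1375 with O(WT)SK (log2 0.13, adjusted p = 0.397). Day 3 was thus the lowest day of its brightest probe set, but not of every one, and its others gave day 7 differences of 0.15 and -0.14. Srebf2, the main regulator of sterol synthesis, read 695, 815 and 734 with O(5R)SK, and 814, 784 and 768 with O(WT)SK, which left its day 7 difference near 0 (log2 -0.00, adjusted p = 0.987). Srebf1, the regulator more tied to fatty acids, read 1118, 967 and 1154 with O(5R)SK, and 1030, 1058 and 1252 with O(WT)SK (log2 0.16, adjusted p = 0.393). Stard4, a carrier of cholesterol between membranes, read 611, 678 and 747 with O(5R)SK, and 628, 788 and 723 with O(WT)SK (log2 0.24, adjusted p = 0.226). Scap read 1444, 1432 and 1351 with O(5R)SK, and 1429, 1479 and 1863 with O(WT)SK, so its difference of log2 0.14 (adjusted p = 0.575) rested on the O(WT)SK day 7 array, without which it was -0.08.

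Among the fatty acid genes, Scd1 and Scd2 had the largest fitted day 7 differences. Scd2, a stearoyl-CoA desaturase that makes monounsaturated fatty acids, read 11134, 14916 and 15771 with O(5R)SK, and 12157, 14764 and 15427 with O(WT)SK. Every array after day 3 was above both day 3 arrays, and its day 7 difference was 1.34-fold (95% interval 1.11 to 1.61, adjusted p = 0.0715). Scd1, the related desaturase, read 4905, 5474 and 5740 with O(5R)SK, and 4745, 5921 and 7030 with O(WT)SK, higher on each later day in both combinations, and 1.32-fold on day 7 (adjusted p = 0.115). Fads1, a desaturase of polyunsaturated fatty acids, read 1814, 1776 and 2040 with O(5R)SK, and 1774, 1705 and 1948 with O(WT)SK (log2 0.15, adjusted p = 0.341). Elovl6, which lengthens palmitate, read 1173, 1186 and 910 with O(5R)SK, and 1107, 1244 and 1115 with O(WT)SK (log2 -0.18, adjusted p = 0.410), and Acaca, acetyl-CoA carboxylase, read 438, 473 and 431, against 511, 592 and 419 (log2 -0.15, adjusted p = 0.477). Fasn, fatty acid synthase, read 2285, 2475 and 2279 with O(5R)SK, and 2358, 2515 and 2278 with O(WT)SK, so that day 3 and day 7 lay close together and day 5 was the highest in each. Elovl5, an elongase of polyunsaturated chains, read 4545, 4055 and 4178 with O(5R)SK, and 4341, 4276 and 3896 with O(WT)SK, highest on day 3 in each. Fads2, the partner desaturase of Fads1, read 653, 670 and 630 with O(5R)SK, and 679, 724 and 605 with O(WT)SK, and Acsl3, which activates fatty acids with coenzyme A, read 574, 664 and 598, against 598, 680 and 612. Both had their highest value on day 5 in each combination. Acss2 read 244, 268 and 257 with O(5R)SK, and 280, 260 and 268 with O(WT)SK, with overlapping values. Acly, which releases acetyl-CoA from citrate, stayed between 6567 and 6934 on all 6 arrays in its brightest probe set. Another bright one read 4370, 4829 and 5654 with O(5R)SK, and 4472, 4448 and 3949 with O(WT)SK, so the flat course was not shared by both.

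**Figure D3:**
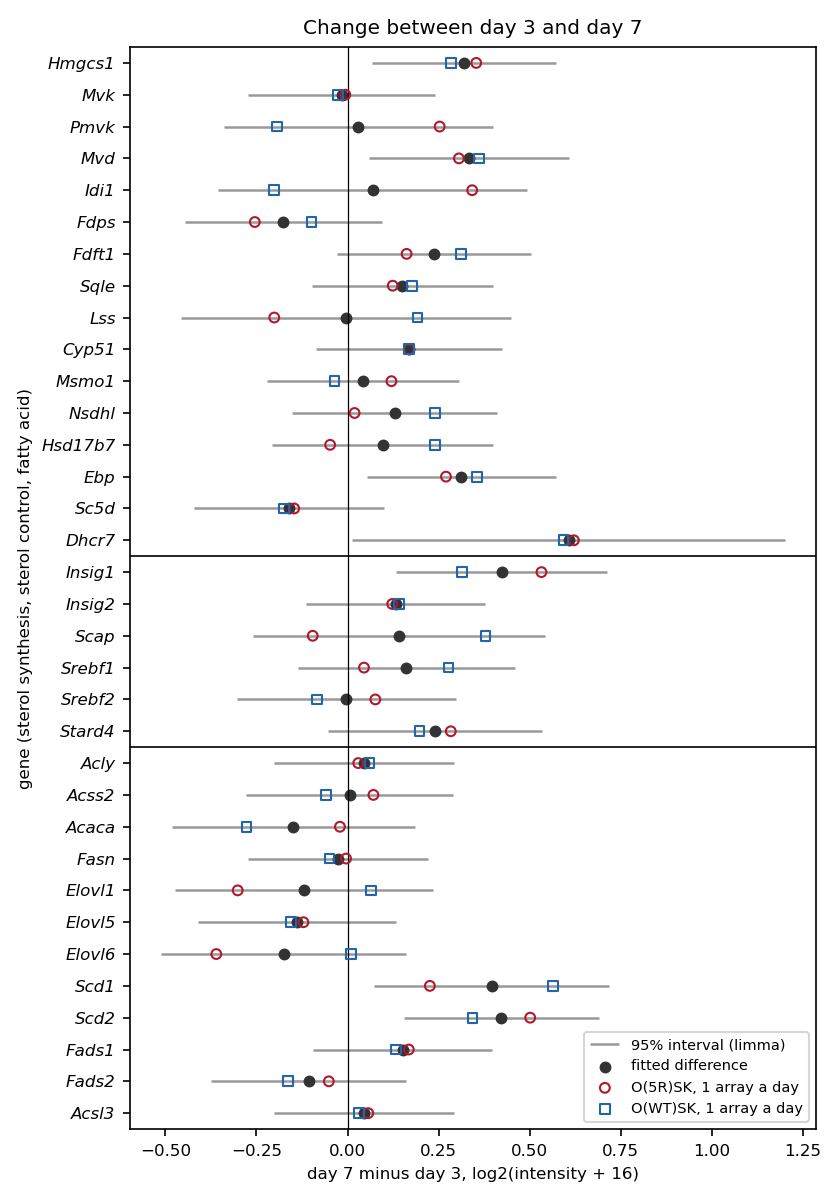
Fitted log2 difference of day 7 minus day 3 for each of the 34 members, with 95% intervals from limma, and the difference within each combination (open points, 1 array a day), grouped by role. The intervals of Hmgcs1, Mvd, Ebp, Dhcr7, Insig1, Scd1 and Scd2 lie above 0 before adjustment for the number of genes tested.

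The courses over the 3 days had a shared shape in many members, which was not tested because each point is 1 array. On day 5, 12 of 16 sterol synthesis genes, 3 of 6 control genes and 8 of 12 fatty acid genes read above day 3 in both combinations, against 34.9% of all tested genes. Elovl1, Elovl5 and Fads1 were the members that read below day 3 in both, against 31.2% of all genes. On day 7, 9 of 16 sterol synthesis genes, 2 of 6 control genes and 6 of 12 fatty acid genes read below day 5 in both combinations, against 28.7% of all genes. Ebp, Srebf1, Scd1, Scd2 and Fads1 read above day 5 in both, against 32.6%. Both steps use the same day 5 arrays, so a shift of those arrays would enter each with opposite sign. The median log2 difference of the sterol synthesis genes from day 3 to day 5 was 0.15 in O(5R)SK and 0.18 in O(WT)SK, where that of all genes was 0.00 and 0.02. For the fatty acid genes the medians were 0.08 and 0.09. Single genes ranged widely. The day 5 difference from day 3 of Mvd was 0.51 in O(5R)SK and 0.37 in O(WT)SK. Hmgcs1 gave 0.40 and 0.31, Insig1 0.36 in each, Dhcr7 0.21 and 0.96, and Idi1 0.40 and 0.01.

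**Figure D4:**
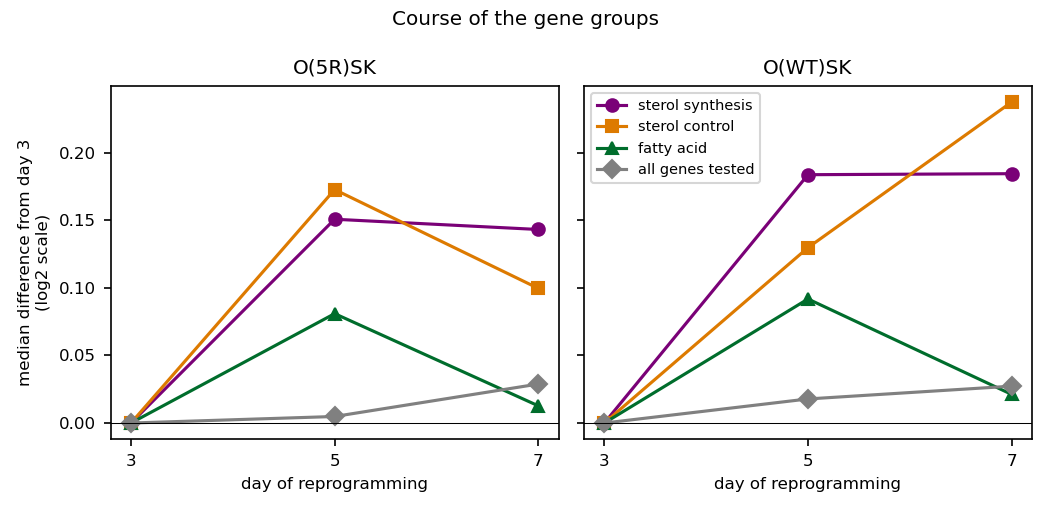
Median over the members of each group (sterol synthesis, sterol control, fatty acid) of log2(intensity + 16) minus the day 3 value of the same combination, on days 3, 5 and 7, with a panel per combination, a line per group and a line for all tested genes. On day 7 the sterol synthesis median was 0.14 with O(5R)SK and 0.18 with O(WT)SK, and the control median was 0.10 and 0.24.

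The second question was whether O(5R)SK and O(WT)SK cells differed. No member passed limma's test and none had an unadjusted p under 0.05, while no gene of the 12622 passed the adjusted threshold (0%) and 9.35% had an unadjusted p under 0.05. With the trended, robust prior 82 genes passed (0.650%), and no member was among them. The adjusted p of the members lay between 0.598 and 0.993. Over the members, the lowest lower end of a 95% interval of the fold was 0.590, for Dhcr7. The highest upper end was 1.28, for Insig1. Each interval is that of 1 gene without adjustment for the number of genes tested, and folds inside it remain compatible with that gene's values. In the sterol synthesis group the fitted difference was above 0 for 2 of 16 genes, in the control group for 1 of 6 and in the fatty acid group for 3 of 12, against 46.8% of all tested genes. The medians were -0.12, -0.06 and -0.04, with -0.01 over all genes. The sterol synthesis median became -0.014 when the mean of each gene's probe sets was used.

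By day, 8 of 16 sterol synthesis genes were lower in O(5R)SK cells on each of the 3 days, against 17.9% of all genes, namely Mvk, Mvd, Fdps, Sqle, Nsdhl, Hsd17b7, Sc5d and Dhcr7. None of the control genes and 1 fatty acid gene, Acsl3, did so. Hmgcs1, Insig1 and Fads1 read higher on all 3 days, against 15.9%. For Hmgcs1 the direction depended on the probe set. Its brightest gave a fitted difference of 0.06, and its others gave -0.13, 0.13, -0.15 and 0.25. Hsd17b7, which reduces a sterol ketone, was the member with every O(5R)SK array (2242, 2316 and 2169) below every O(WT)SK array (2327, 2700 and 2754), a pattern that 4.71% of all genes had. Its fitted difference was log2 -0.21 ± 0.09 (SE; adjusted p = 0.598). Dhcr7 had the largest fitted difference, -0.28 ± 0.18 (SE; adjusted p = 0.672), made of -0.04 on day 3, -0.78 on day 5 and -0.01 on day 7, so it rested on the day 5 arrays, and with 1 array left out it ran from -0.41 to -0.02. Mvk gave -0.17, Sqle -0.16 and Lss, lanosterol synthase, -0.14, with adjusted p between 0.598 and 0.759. Lss read 469, 507 and 406 with O(5R)SK, and 496, 458 and 569 with O(WT)SK, so its sign changed on day 5.

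Among the other genes, Scap gave log2 -0.16 (adjusted p = 0.700), again from day 7, where the difference was -0.46 after 0.01 and -0.05 on days 3 and 5. Insig1 gave 0.11 (adjusted p = 0.708) and Insig2, Srebf1, Srebf2 and Stard4 lay between -0.08 and -0.01. Acaca gave -0.16, Scd1 -0.12, Elovl1 -0.11, Elovl6 -0.09 and Acss2, the acetyl-CoA synthetase, -0.07, with adjusted p between 0.662 and 0.803. On day 7 the O(5R)SK value of Elovl1, an elongase of long saturated chains, was 3740 against 4769 with O(WT)SK, where days 3 and 5 gave 4613 and 4540 against 4563 and 4522. Scd1 showed the same order on day 7, 5740 against 7030. Marker lists differed between the combinations as well, with no marker passing the test. The fibroblast markers summed to 105424 with O(5R)SK against 142810 with O(WT)SK on day 7, a sum in which bright genes weigh most, and 4 of the 11 read higher with O(5R)SK on that day. All 11 tested macrophage markers had a fitted difference below 0, with a median of -0.15, and the 7 tested adipocyte markers had a median of -0.47. The part of these markers in the members' differences was not tested.

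**Figure D5:**
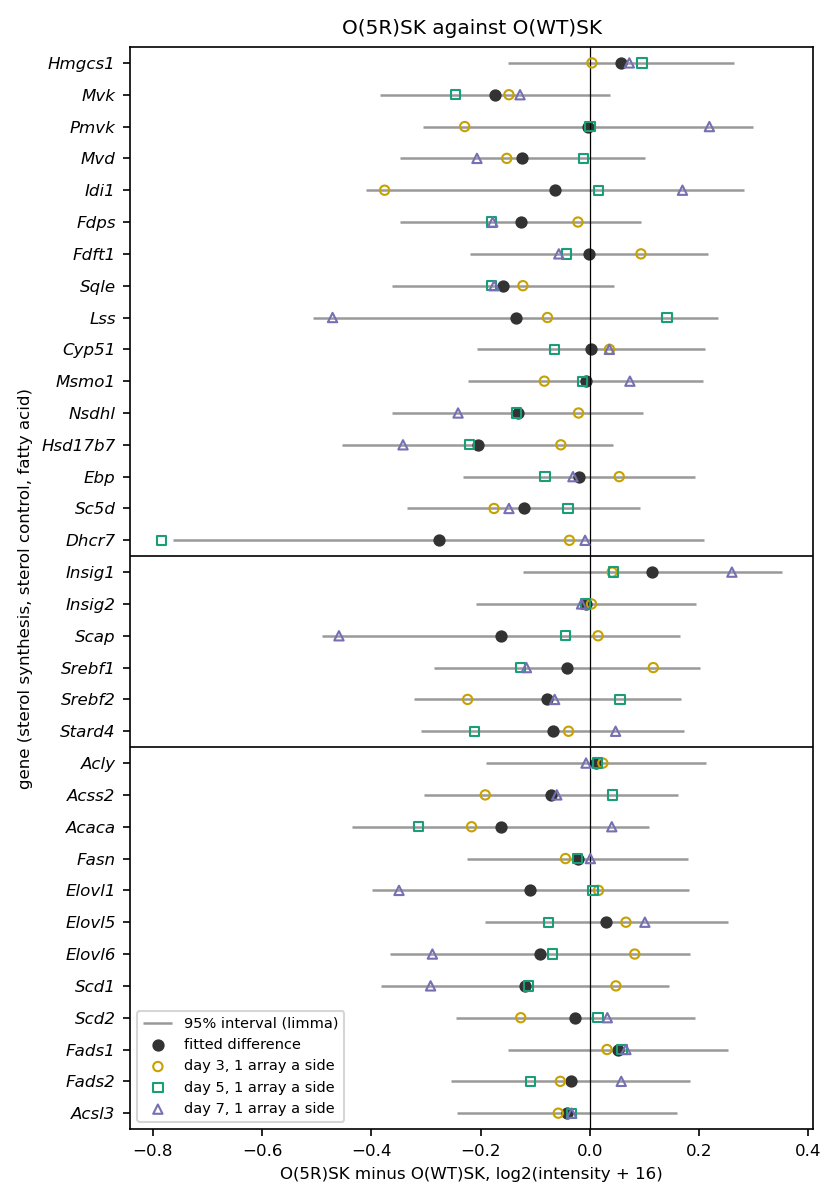
Log2 difference of O(5R)SK minus O(WT)SK for each member on days 3, 5 and 7 (points) with the fitted difference and its 95% interval from limma. All 34 intervals include 0, and the points of Dhcr7 on day 5 and of Lss and Scap on day 7 lie far from the others of the same gene.

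Whether the courses differed between the combinations was tested as the difference of their slopes per 4 days. No member passed, no gene of the array passed (0%), and Pmvk, phosphomevalonate kinase, was the single member with an unadjusted p under 0.05, against 7.52% of all genes. Pmvk read 518, 571 and 620 with O(5R)SK, and 610, 571 and 531 with O(WT)SK, a slope difference of log2 0.45 (adjusted p = 0.661). Idi1 had the largest slope difference, 0.55 (adjusted p = 0.709), which was 0.08 without the O(5R)SK day 3 array, 1.01 without the O(5R)SK day 7 array, 0.32 without the O(WT)SK day 7 array and 0.90 with the mean of probe sets. Scap had the most negative, -0.47 (adjusted p = 0.694), which was -0.19 without the O(WT)SK day 7 array, -0.76 without the O(WT)SK day 3 array and -0.11 with the mean of probe sets.

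Genes of neighbouring pathways were taken from 4 lists chosen by role, and their counts are read against the 10.2% of all tested genes that passed between day 3 and day 7. Between day 3 and day 7, none of 8 tested genes of other sterol and isoprenoid synthesis and none of 12 of fatty acid oxidation passed the test. Of 17 genes for sterol sensing, uptake, transport and efflux, 2 passed (11.8%). Abca1, which exports cholesterol from the cell, read 3818, 5205 and 7009 with O(5R)SK, and 3670, 4969 and 6973 with O(WT)SK, and rose by log2 0.90 to day 7 (adjusted p = 0.0157). Ch25h, which hydroxylates cholesterol to a signalling oxysterol and is well known in macrophages, read 1597, 781 and 1007 with O(5R)SK, and 1626, 840 and 1113 with O(WT)SK, and fell by 0.60 (adjusted p = 0.0339). Of 21 genes of other fatty acid and glycerolipid synthesis, 2 passed (9.52%), so both shares were near that of the array. Lpin1, a phosphatidate phosphatase, read 414, 640 and 799 with O(5R)SK, and 360, 597 and 757 with O(WT)SK, and rose by 0.98 (adjusted p = 0.0145). Hacd1, a dehydratase of the elongation cycle, read 15717, 10376 and 7373 with O(5R)SK, and 15870, 11571 and 8843 with O(WT)SK, and fell by 0.97 (adjusted p = 0.0179). These 4 calls were lost when any day 3 or day 7 array was left out and when genes of every intensity were tested, settings under which no gene of the array passed. The call of Ch25h was also lost without either day 5 array. Between the combinations no gene of the 4 lists passed.

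The members' probe sets did not always agree. The 34 members had 83 probe sets, of which 75 had a mean above the filter, and the values above are those of the brightest. Counting only probe sets above the filter, 24 members had several and 10 had 1. The sign of the day 7 difference was the same in all such probe sets of 14 of the 24 and differed in 10 (Elovl1, Fads1, Fads2, Hsd17b7, Insig2, Lss, Msmo1, Sc5d, Srebf2 and Stard4). For the combination difference it was the same in 6 and differed in 18.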

How the data were processed

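Total RNA of 6 groups was measured on 1 array each. The deposited values are linear array intensities, made by the authors with the affy software, per the submitters' processing notes. Its version and settings have not been given in the sources used here. Intensities have the same trimmed mean of 500 (2% trimmed) on every array, and the number of arrays, not read depth, limits precision. Of 45101 probe sets, 34958 named 1 gene, 932 several and 9211 none, per the platform annotation. The brightest probe set stood for each gene, and genes with a mean above the 40th percentile of probe-set means were tested (12622 of 18193). Differences were fitted on log2(intensity + 16) with limma 3.58.1 in R 4.3.3, with combination and day as terms and Benjamini-Hochberg adjustment over all tested genes. Slopes used day as a number. Residual degrees of freedom were 2, with 2.6 from the prior (2.22 for slopes). Scripts used Python 3.11.15 and were tested on simulated data. All 6 control members, and the 5 sterol synthesis and 5 fatty acid members with the largest absolute fitted difference in each main comparison, are given with values on every array and their fit. Pathway genes are named where they passed the test for day 7 against day 3. The members and lists were chosen with earlier results of these data known. A protein comparison was not run. Alternatives were 13 settings, 7 that keep all arrays and 6 that each leave out 1.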

Additional observations from a re-analysis of the deposited data

How the results depend on the processing

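Of 13 alternatives, none called a member for O(5R)SK against O(WT)SK or for the slopes. For O(5R)SK against O(WT)SK the number of genes called was 0 in the report and 27 with a filter at the 60th percentile, 2 with a pseudocount of 64 and 82 with a trended, robust prior. For day 7 against day 3 it was 1287, and 2202, 1971 and 2846 under the same settings, 0 without a filter, and 0 to 1073 with 1 array left out. For slopes the trended prior called 2 genes. For day 7 the 60th percentile filter and the pseudocount of 64 each called 1 control member (Insig1) and 1 fatty acid member (Scd2), and the trended prior called 1 control, 2 fatty acid and 3 sterol synthesis members. The day 7 median of sterol synthesis genes was 0.069 with a common median, 0.19 with the mean of probe sets and 0.11 to 0.19 with 1 array left out. That of fatty acid genes was -0.055 with a common median, -0.044 with quantile normalization, -0.02 with the mean of probe sets and -0.034 to 0.018 with 1 array left out. The combination median was -0.014 for sterol synthesis and 0.01 for fatty acid genes with the mean of probe sets, and -0.10 to -0.091 and -0.047 to -0.019 with 1 array left out. With the mean of probe sets the combination difference turned positive for Srebf2 (0.019), Stard4 (0.0037), Lss (0.089), Acaca (0.018), Elovl1 (0.034), Elovl6 (0.0018) and Acss2 (0.046), and the day 7 difference was 0.074 for Srebf2 and -0.021 for Stard4. With 1 array left out, the day 7 difference ran from -0.11 to 0.11 for Srebf2, -0.081 to 0.36 for Scap and -0.30 to 0.0035 for Acaca, and the combination difference from -0.17 to 0.011 for Elovl1, -0.18 to 0.0069 for Elovl6, -0.13 to 0.0039 for Stard4 and -0.27 to 0.032 for Lss. The cause of these differences was not tested.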

Other observations

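Other probe sets of some members read differently from the brightest, and these were chosen after their values were seen. For Sc5d, a dimmer one gave 627, 961 and 996 for days 3, 5 and 7 in O(5R)SK cells, and 724, 983 and 1227 in O(WT)SK cells, a log2 difference of 0.70 between day 7 and day 3, where the brightest gave -0.16. For Scd2, another read 596, 1241 and 1416 with O(5R)SK, and 843, 1239 and 1350 with O(WT)SK, a difference of 0.95. For Lss, another read 335, 410 and 474 with O(5R)SK, and 280, 482 and 413 with O(WT)SK, a difference of 0.51. For Idi1, another read 1138, 1768 and 2397 with O(5R)SK, and 1451, 1637 and 1270 with O(WT)SK, a difference of 0.44. Probe sets of other members gave lower differences than the brightest. For Stard4, another read 335, 279 and 244 with O(5R)SK, and 335, 260 and 246 with O(WT)SK. That was a difference of -0.43, where the brightest gave 0.24. Another of Insig2 gave -0.14 against 0.13, of Hsd17b7 -0.05 against 0.10, and of Scd1 0.09 against 0.40. The other 4 probe sets of Hmgcs1 gave 0.18, 0.41, 0.35 and 0.28, above 0 like the brightest. The one that gave 0.28, with intensities of 71 to 123, gave 0.60 with O(5R)SK and -0.04 with O(WT)SK.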
